A study of Homo sapiens with 1 sample.

Results

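The chromosome 19 microRNA (miRNA) cluster, known as C19MC, was read on 1 array of DLD-1 cells, and 8 of its 48 mature miRNAs (16.7%) were called detected, against 44.4% of all miRNAs on the array (1133 of 2549). Members were taken by name alone, as every human miRNA of the array named miR-498, miR-512, miR-515 to miR-527, miR-1283 or miR-1323, with any letter, copy or arm suffix, and no limit on signal was part of the rule. The 8 were miR-519e-5p, miR-519e-3p, miR-519d-5p, miR-519d-3p, miR-517a-3p, miR-517-5p, miR-525-5p and miR-1323. All were dim, between 1.36 and 7.88 in total gene signal, and only miR-519e-5p was carried by 2 probes whose spots stood well above background.

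DLD-1 is an established human colorectal carcinoma line, grown here in RPMI medium with fetal bovine serum. The cells had been transfected with a non-targeting control siRNA, labelled si-NC (n = 1 array), and total RNA was taken with Trizol. The study is about miRNA levels after knockdown of circLONP2, a circular RNA of the LONP2 gene. Its knockdown array was not analysed here, so the values describe the control alone, without a comparison of groups or a p-value.

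C19MC is a large tandem array of miRNA genes found in primates. It is imprinted, expressed from the paternal copy, and best known for its high and nearly exclusive expression in the trophoblast of the placenta, with lower levels in pluripotent stem cells and reactivation in some tumours. Mature miRNAs are cut from hairpin precursors, and both the 5p and the 3p strand of a hairpin stem can be kept. The seed, bases 2 to 8 from the 5′ end, largely sets which messenger RNAs a miRNA binds, and several 3p arms of the cluster share or nearly share the seed of the miR-17, miR-302 or miR-372 families.

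The mature sequences of the detected members are shown first, because some near-identical members of the cluster differed in their calls. They are written 5′ to 3′ in RefSeq's spelling (GRCh38.p14), with the seed in capitals. RefSeq matched 43 of the 48 names. The others, named only, were miR-498, miR-518f-3p, miR-520b, miR-520e and miR-522-3p.
miR-519e-5p: uUCUCCAAaagggagcacuuuc
miR-519e-3p: aAGUGCCUccuuuuagaguguu
miR-519d-5p: cCUCCAAAgggaagcgcuuucuguu
miR-519d-3p: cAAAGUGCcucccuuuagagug
miR-517a-3p: aUCGUGCAucccuuuagagugu
miR-517-5p: cCUCUAGAuggaagcacugucu
miR-525-5p: cUCCAGAGggaugcacuuucu
miR-1323: uCAAAACUgaggggcauuuucu
The members below were not called. Compared base for base from the 5′ end without a shift, each is the nearest, or as near as any, to a detected member above.
miR-515-5p: uUCUCCAAaagaaagcacuuucug
miR-520f-5p: cCUCUAAAgggaagcgcuuucu
miR-517c-3p: aUCGUGCAuccuuuuagagugu
miR-520f-3p: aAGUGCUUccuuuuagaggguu
miR-518c-3p: cAAAGCGCuucucuuuagagugu
miR-520a-5p: cUCCAGAGggaaguacuuucu
miR-518f-5p: cUCUAGAGggaagcacuuucuc
The last set shows seeds shared beyond the cluster, miR-17-5p having the seed of miR-519d-3p and miR-372-3p that of the undetected member miR-520a-3p.
miR-520a-3p: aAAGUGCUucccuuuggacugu
miR-17-5p: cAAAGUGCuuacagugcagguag
miR-372-3p: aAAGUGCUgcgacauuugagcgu

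Each member had 20 spots, shared among 2 probes in 40 members, 3 probes in 7 and 4 probes in miR-525-3p. A spot value is a brightness after local background was subtracted, so it can be below 0. The scanner software turns the spots of a probe into a probe signal with an error and calls a miRNA detected when at least 1 probe reaches 3 times its error. The total gene signal, which is on a smaller scale than the spots, sums the probe signals past that limit. Every error below is technical, from the software or from replicate spots of this 1 array.

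Over the 105 probes of the cluster, 11 (10.5%) reached 3 times their error, against 39.0% of all miRNA probes (2301 of 5893). All 11 belonged to the 8 detected members by construction of the call. None of the members had a saturated spot (0 of 960). With outlier spots included, the software flagged 7.08% of the members' spots as well above background (68 of 960), compared with 34.3% of all miRNA spots and 1.40% of negative control spots (14 of 1000). The cluster was thus read mostly at or near background on this array.

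**Figure D1:**
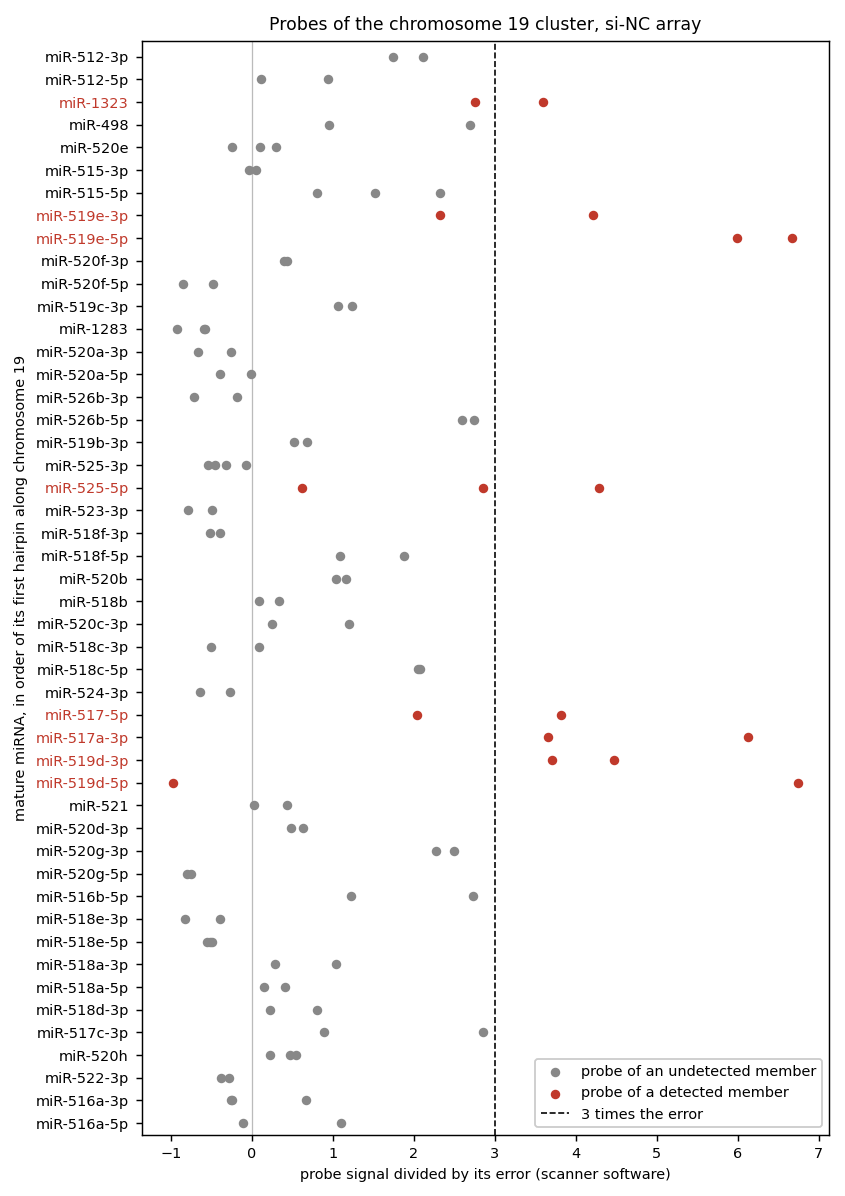
Each point is 1 probe, placed by its signal divided by its error from the scanner software (x axis, no unit), and each row is a mature miRNA in the order of its first hairpin along chromosome 19. Red points are probes of the 8 detected members and grey points those of the 40 undetected ones. The dashed line marks 3 times the error. The 11 probes beyond it lie on 8 rows, and 1 probe of miR-519d-5p lies below 0 while the other reaches 6.75.

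The MIR519E hairpin gave the brightest member. miR-519e-5p had a total gene signal of 7.88 ± 0.879 (software error), higher than 38.5% of the detected miRNAs. Its probes had spots from 19.001 to 27.7 (median 22.9, 9 spots used) and from 16.9 to 21.9 (median 19.6, 8 spots used), and every used spot of both was well above background. The probe means, 23.5 ± 3.20 and 19.5 ± 1.51 (SD over spots), differed by 0.27 ± 0.08 on the log2 scale (standard error from spots). It was the sole member with 2 probes of this kind.

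The opposite arm of that hairpin, miR-519e-3p, was also called, at 2.24 ± 0.531. Its brighter probe had spots from 5.32 to 15.5 (median 14.03), of which 6 of 10 were well above background. The other probe ran from 4.02 to 7.88 (median 6.46), with 0 of 10, and did not reach 3 times its error. The call for the 3p arm therefore rested on 1 probe.

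Both arms of MIR519D were called too. The 3p arm, miR-519d-3p, carries the seed of miR-17-5p. It had a total gene signal of 4.30 ± 0.743, from probes with spots from 7.59 to 12.3 (median 10.1, 0 of 9 well above background) and from 10.1 to 17.002 (median 12.7, 5 of 10). Both probes passed 3 times their error, at ratios of 3.70 and 4.47, although only the second reached 50% of its spots well above background.

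The 5p arm, miR-519d-5p, showed the largest disagreement between probes in the cluster. Its total gene signal was 4.40 ± 0.652. The first probe had spots from −3.81 to −0.908 (median −2.96), all 9 below 0, and the second had spots from 20.8 to 30.6 (median 23.4), all 10 well above background. The probe means differed by 26.6 ± 1.15 in spot brightness (standard error from spots). The groups of spots did not overlap, and the second probe alone carried the call.

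The neighbouring hairpin MIR517A gave miR-517a-3p, at 5.59 ± 0.794. Its dimmer probe ran from 7.23 to 12.5 (median 10.3), with 0 of 10 spots well above background, and its brighter from 19.2 to 21.3 (median 20.3), with 7 of 7. The probes did not overlap and differed by 0.98 ± 0.08 on the log2 scale, though both passed 3 times their error. RefSeq gives miR-517b-3p, from another hairpin of the cluster, the same 22 bases as miR-517a-3p, so this signal cannot be assigned to a single hairpin.

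The remaining calls were fainter. miR-517-5p, a 5p arm that RefSeq places on 3 hairpins (MIR517A, MIR517B and MIR517C), had a signal of 1.98 ± 0.518, with spots from 3.14 to 8.77 and from 7.74 to 13.7 on its probes and 1 of 10 spots of the second well above background. miR-1323, next to the start of the cluster, had a signal of 1.85 ± 0.514, with spots from 5.95 to 14.9 (1 of 10 well above background) and from 4.78 to 9.10 (0 of 10). miR-525-5p, at 1.36 ± 0.317 the lowest, had 3 probes with spots from −0.188 to 3.57, from 5.26 to 11.7 and from 11.2 to 13.99. None of these members had a probe with 50% of its spots well above background, and each was called on 1 probe.

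**Figure D2:**
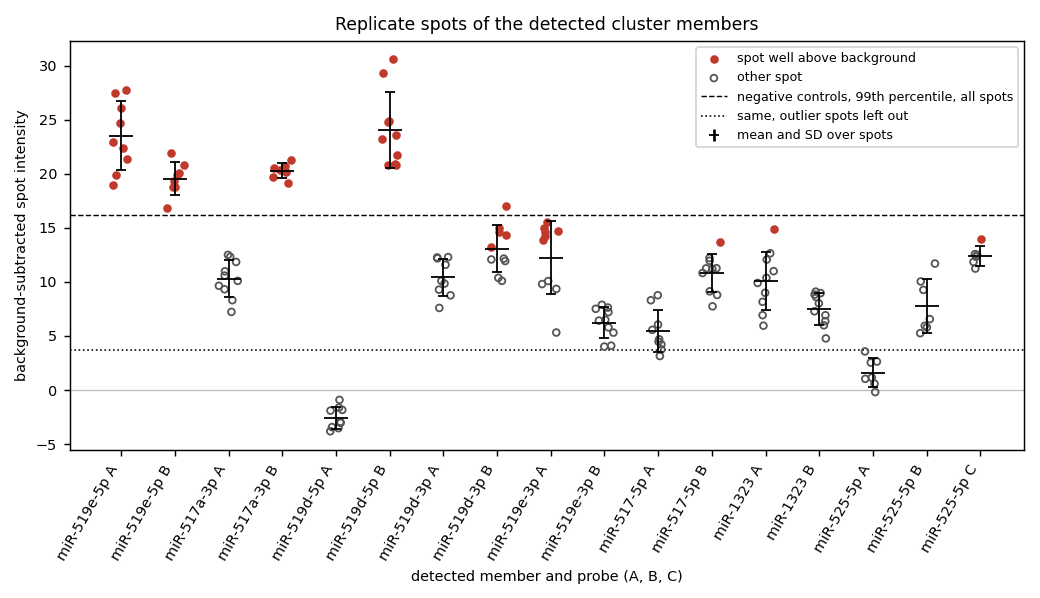
Every used replicate spot of the 8 detected members is drawn by probe (A, B or C, x axis) against its background-subtracted intensity (y axis, linear, arbitrary scanner units), with bars for the mean and SD over spots. Filled red points were flagged well above background, and the lines mark the 99th percentile of negative control spots, 16.1 over all spots and 3.73 with outlier spots left out. Both probes of miR-519e-5p lie above the upper line, while miR-519d-5p has 1 probe above it and 1 below 0.

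In this cluster, 1 of the 8 detected members had 2 or more supported probes, a supported probe being one for which 50% or more of the used spots were well above background, compared with 70.6% of all detected miRNAs (800 of 1133). A further 4 had 1 supported probe and 3 had none. By the limit of 3 times the error, 3 members (miR-519e-5p, miR-517a-3p and miR-519d-3p) were called on 2 probes and 5 on 1. Support is tied to signal by its definition, since a spot flagged well above background has to be bright. Among detected miRNAs outside the cluster with a signal under 8, a ceiling chosen after the values were seen, 30.3% had 2 or more supported probes (131 miRNAs). The low support of the cluster is therefore not independent of its low signal, and what it adds to that signal was not tested.

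The median total gene signal of the detected members was 3.27, against 12.5 over all detected miRNAs, whose quartiles were 4.99 and 51.97. All 8 lay below that median and 6 below the lower quartile. Their software errors were large relative to signal, with a median of 20.3% (11.2% to 27.9%) compared with 8.94% over all detected miRNAs. The members' signals summed to 29.6, or 0.00611% of the summed signal of detected miRNAs. Since probes differ in brightness per molecule, these places describe signal on the array and not relative abundance.

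By arm, 4 of 16 members named 5p were detected (25%), 3 of 24 named 3p (12.5%) and 1 of 8 without an arm suffix (12.5%). On the whole array the shares were 49.1%, 43.8% and 40.3%. Of the 34 hairpin names of the cluster, 6 had a detected arm. A name is what remains without the arm suffix, so miR-517 (5p) and miR-517a (3p) count apart. RefSeq places both on MIR517A, so both arms listed for that hairpin were called. MIR517C had the shared 5p arm called without its 3p arm. Both arms were listed for 14 names, and for 11 of them neither was detected, for 2 (miR-519d and miR-519e) both were, and for miR-525 only the 5p arm was. Among all 810 hairpin names with both arms on the array, neither arm was detected for 36.2% and both were for 28.6%.

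Along the chromosome, RefSeq orders 46 hairpins in the cluster. Matched by miRNA name and not by sequence, 41 of them had a member on the array and 7 a detected member. MIR1323 stands near the start, followed by MIR519E, MIR525, MIR517A and MIR519D, the last 2 side by side. MIR517B and MIR517C were counted through the shared miR-517-5p. The array lists the 3p sequence common to MIR517A and MIR517B only as miR-517a-3p, so its probes are tallied here under MIR517A although they could equally read MIR517B. By probe support, MIR519E had 3 of its 4 probes past 3 times the error and 3 supported, MIR519D had 3 of 4 past and 2 supported, MIR517A had 3 of 4 past and 1 supported, and MIR525 had 1 of 7 past and 0 supported. The detected hairpins were spread over the cluster rather than forming a single run.

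Some near-identical members differed in their calls. Sequences were compared base for base from the 5′ end, without a shift. Differences are given as the detected member's base, the position from the 5′ end counted from 1, and the other member's base. miR-517a-3p and miR-517c-3p share 21 of 22 bases and differ by C12U. miR-517c-3p was not called, with a best probe at 2.85 times its error, just under the limit, and its probe means were 7.77 and 2.32. The pair thus lay on either side of the threshold while the brighter probes differed (20.3 against 7.77 in mean spot brightness).

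miR-519d-5p and miR-520f-5p differ by C5U over the 22 bases they share, and miR-520f-5p is 3 bases shorter. The best probe of miR-520f-5p stood at −0.485 times its error, below background. miR-519e-5p and miR-515-5p have the same seed and differ by G12A and G13A over the 22 bases they share, and miR-515-5p is 2 bases longer at the 3′ end. The best ratio of miR-515-5p, 2.32, fell below the limit. miR-525-5p had 2 equally close undetected relatives, each with 19 of 21 bases alike. miR-520a-5p (U12A and C14U) stood at −0.00779 and miR-518f-5p (C4U and U12A) at 1.87. Without a shift, the closest relative of miR-519e-3p was miR-520f-3p (C7U and U19G), at 0.435. That of miR-519d-3p was miR-518c-3p (U6C, C9U and C12U), at 0.0892. With the 5′ ends shifted, nearer relatives of both appear. The undetected miR-520g-3p, at 2.50, lies closer to miR-519d-3p, and the detected miR-519d-3p lies closer to miR-519e-3p. How far probes discriminate between such sequences was not measured on this array.

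Members grouped by seed showed no seed with more than 1 detected member. The 43 sequences held 29 seeds, of which 9 had exactly 2 members. In 5 of these 1 member was detected and in 4 none was. The 5 were AAAGUGC (miR-519d-3p over miR-526b-3p), AGUGCCU (miR-519e-3p over miR-515-3p), UCCAGAG (miR-525-5p over miR-520a-5p), UCGUGCA (miR-517a-3p over miR-517c-3p) and UCUCCAA (miR-519e-5p over miR-515-5p), the detected member being named first. The largest group, AAAGCGC (miR-518a-3p, miR-518b, miR-518c-3p and miR-518d-3p), had 0 of 4.

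Relatives outside the cluster were read at other levels. With the seed AAAGUGC, miR-519d-3p was detected at 4.30 and miR-526b-3p was not, while all 5 miRNAs outside the cluster with that seed were detected, from 1109 (miR-93-5p) to 12080 (miR-20a-5p), miR-17-5p being at 5162 ± 307. These are the oncogenic miR-17 family members, for which miR-106a-5p was not analysed here. miR-519d-3p and miR-17-5p share their first 8 bases and 13 of 22 in all. Whether part of the signal of the miR-519d-3p probes came from the far brighter relatives was not tested.

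With the seed AAGUGCU, none of the cluster's miR-520a-3p, miR-520c-3p and miR-520d-3p was detected (0 of 3), their best ratios being −0.265, 1.20 and 0.629. Outside the cluster 2 of 7 were, miR-372-3p at 34.98 ± 2.58 and miR-373-3p at 34.2 ± 2.52, which lie beside C19MC on chromosome 19 and are known from pluripotent cells. The miR-302 3p arms and miR-302e were not called. With the seed AGUGCCU, miR-519e-3p was detected at 2.24, miR-515-3p was not, and miR-33b-3p was at 7.27 ± 0.631.

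The cluster was set beside lists of other miRNAs. All 8 colon epithelial markers (the miR-200 family with miR-141-3p and miR-429, and miR-192-5p, miR-194-5p and miR-215-5p) were detected at 319 to 9249, so the markers of the labelled cell type were present. In the neighbouring miR-371 to miR-373 group 6 of 8 were detected (75%), at 3.96 to 34.98, 5 of them with 2 or more supported probes. Of the miR-302a to miR-302d arms 1 of 8 was (12.5%), miR-302c-5p at 6.69.

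The other large imprinted cluster, on chromosome 14 and expressed from the maternal copy, had 21 of 92 arms detected (22.8%), with a median of 6.92 and a highest of 1830 for miR-494-3p. Of those 21, 16 had 2 or more supported probes (76.2%), against 1 of 8 in C19MC. The median signal of the C19MC members was lower, at 3.27, and support depends on signal. Both imprinted clusters therefore fell under the array's share of detected miRNAs. No difference between lists was tested, as there was 1 array.

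**Figure D3:**
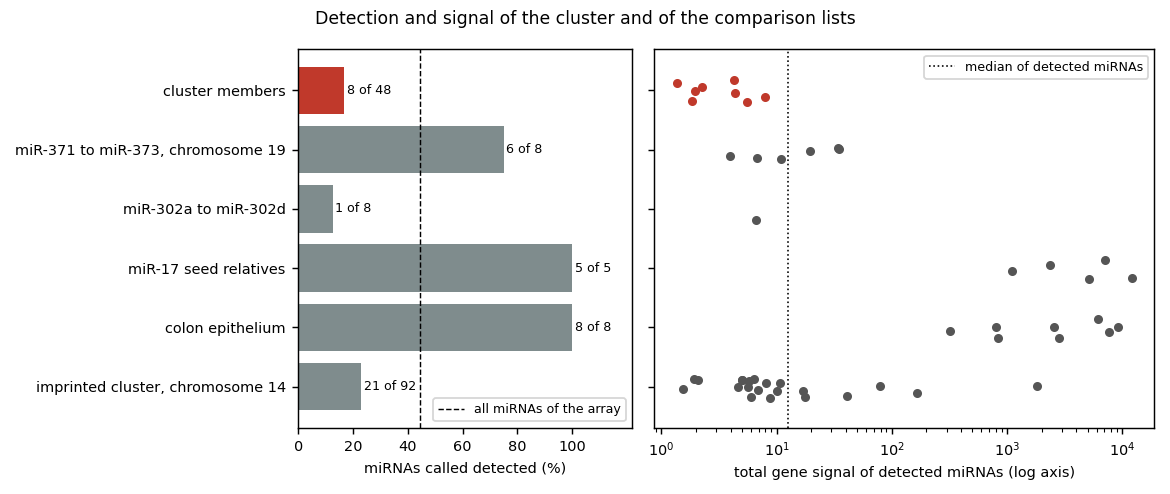
The left panel gives the share of miRNAs called detected in each list (bars from 0, in percent, with counts), the dashed line being the 44.4% of the whole array. The right panel gives the total gene signal of each detected miRNA on a log axis (arbitrary scanner units), the dotted line being the median of all detected miRNAs, 12.5. C19MC has 8 of 48 detected, all to the left of that line, while all colon epithelial and miR-17 seed relatives lie far to its right.

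The 40 undetected members were not all alike. For 26 the best probe was under 1 times its error, and for 13 of these it was below 0. For 6 it was between 1 and 2, and for 8 of the 40 between 2 and 3, compared with 9.74% of the 1376 undetected miRNAs outside the cluster. The 8 nearest the limit were miR-517c-3p (2.85), miR-526b-5p (2.74), miR-516b-5p (2.72), miR-498 (2.69), miR-520g-3p (2.50), miR-515-5p (2.32), miR-512-3p (2.11) and miR-518c-5p (2.08). Just inside the limit stood miR-1323 (3.59) and miR-517-5p (3.82).

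miR-520g-3p and miR-520h give the same sequence apart from 2 further bases at the 3′ end of miR-520g-3p, yet their best ratios were 2.50 and 0.539, neither reaching a call. None of the 40 had a supported probe. With outlier spots left out, 2 of their 759 spots (0.264%) were well above background, against 0 of 937 negative control spots and 20 of 26049 spots of other undetected miRNAs (0.0768%). Their median spot on the same basis was 0.701, compared with −0.494 for other undetected miRNAs and −0.0516 for negative controls. By the software's weaker flag, significantly above background, and with all spots counted, the shares were 32.9%, 22.3% and 9.90%, and 91.3% for the detected members.

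Some uncalled members stood above the negative controls. The highest negative control spot was 4.58 once outlier spots were left out, and for 3 undetected members every used spot of 1 probe lay above it. These were miR-517c-3p (5.94 to 9.96), miR-526b-5p (5.19 to 9.63) and miR-498 (4.68 to 10.2). The share of undetected miRNAs outside the cluster that met this rule was not counted, so it is not shown to be particular to these members. In 9 of the 40 (22.5%) a probe median exceeded the 99th percentile of those control spots, 3.73, compared with 18.5% of undetected miRNAs outside the cluster (255).

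**Figure D4:**
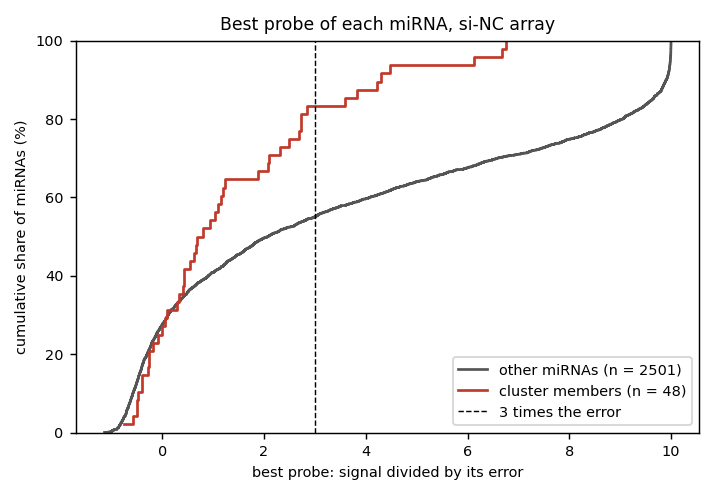
For each miRNA the best probe's signal divided by its error is on the x axis, and the y axis gives the cumulative share of miRNAs in percent, for the 48 members (red) and the 2501 other miRNAs (grey). The dashed line marks 3 times the error. The members reach 6.75 at most with a median of 0.736, while the others have a median of 2.07 and 20.2% of them (504) stand at 9 or more.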

How the data were processed

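Per the labels, T4 RNA ligase joined Cyanine 3-pCp to the RNA of 1 DLD-1 sample, whereas the study's methods describe labelled cDNA. The deposited scanner file holds spot intensity, background-subtracted in Feature Extraction 11.0.1.1 and not normalized between arrays, with flags and total gene signals. The authors also deposited log2 values, quantile normalized in GeneSpring, with a floor at 2.32 found from the values. No sample column was left out (0).

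Detection was the software's flag. Probe means, SDs and spot ranges left outlier spots out, and shares of flagged spots say which spots they count. A probe counted as supported with at least 50% of its used spots well above background. Values were computed in Python 3.11.15 (pandas 2.3.3, numpy 2.4.6, matplotlib 3.10.9, scipy 1.17.1). The normexp correction (offset 50) was run by limma 3.58.1 in R 4.3.3. The calculations were tested on simulated data with probe signals well above those of the cluster, so calls near the limit were not covered. Sequences and hairpin order came from RefSeq on GRCh38.p14. Coordinates are not printed because the array was designed on hg19. The named miRNAs were all detected members, members with the 5 largest differences between probes, near-identical sequences and the comparison lists. Members near the detection limit were named after their values were seen. The members and lists were chosen with earlier results of these data known. Alternatives were other detection rules, scalings, background correction, outlier handling and probe filters. The single array limits the precision.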

Additional observations from a re-analysis of the deposited data

How the results depend on the processing

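The counts for the cluster moved with the detection rule. The 8 detected members became 5 when 50% of the spots of 1 probe had to be well above background, 3 when the median spot of a probe had to exceed the 99th percentile of the negative controls, 1 when every probe had to qualify and 2 with a signal of 5 or more. They became 17 with outlier spots left out of that negative control percentile, a rule chosen after seeing the data. In the same order the 6 hairpin names became 3, 3, 1, 2 and 15, the 4 detected 5p arms became 2, 2, 1, 1 and 9, and the 3 detected 3p arms stayed at 3 and then became 1, 0, 1 and 6. Under these rules the array gave 965, 888, 748, 849 and 1396 detected miRNAs of 2549, so the share in the cluster stayed below that of the array. The deposited floor gave the same counts, and again 1133 miRNAs over the array, so it was no separate check on the flag. Members with 2 or more supported probes went from 1 to 3 when a probe needed only 3 times its error, and stayed at 1 with 1 spot, every spot or outlier spots kept. The median signal, −4.07 on the log2 scale against the 75th percentile of detected miRNAs, became −1.65 with the percentile over all miRNAs, −3.50 with deposited values, −2.68 with normexp and −2.97 in the 2 members at 5 or more. The deposited median is the single value that 6 of the 8 members share just above the floor. The difference between probes, 0.27 for 1 member, became 0.082 with normexp, 0.46 with outlier spots kept and 0.97 over 7 members without the filter on dim probes. By construction, the normexp offset of 50 shrinks log2 differences between probes this dim. The percentile over all miRNAs takes in undetected ones at a placeholder of 0.1, and the 0.97 takes in further members. Other causes were not tested. No paired analysis was possible because there was 1 array, and signal near background limits every call on the cluster.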

Other observations

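After the values had been seen, the 5p arms of the cluster were sorted by whether their RefSeq sequence held GCACUU, searched in the miRNA strand as written. Of the 10 that did, 2 were detected and 6 had a best probe at 2 or more times its error, with a median ratio of 2.20. These included miR-519e-5p (6.67), miR-525-5p (4.29), miR-526b-5p (2.74) and miR-516b-5p (2.72), and the lowest was miR-520g-5p (−0.750). Of the 6 without it, 2 were detected, miR-519d-5p (6.75) and miR-517-5p (3.82), and the other 4 stood at or below 0.411, with a median over the 6 of 0.202. Outside the cluster 15 of 2205 miRNAs with a sequence (0.680%) held the motif and 7 of these were detected (46.7%), against 44.6% of those without it. Over all miRNAs outside the cluster the median best ratio was 2.07, so most of them also stood at 2 or more. The 2.20 of the arms with the motif is near that level. The sorting was chosen on these values and was given no test.

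In the deposited log2 table all 8 detected members stood above the floor of 2.32, but 6 of them shared the single value 2.3236. Values of 2.47 for miR-517a-3p and 3.02 for miR-519e-5p were set apart from the rest, so that table gives no order among the other 6.

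The GC content of the mature sequence was close in detected and undetected members, with medians of 47.7% and 47.6% over the 43 with a sequence. Its Spearman correlation with the best ratio over these members was −0.191 and was given no test.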
